A study of Mus musculus with 4 samples.

Results

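The tumor necrosis factor (TNF) superfamily was followed across the cell types of MC38 tumors. Its members were taken by symbol: each gene whose name begins with Tnfsf or Tnfrsf, plus Tnf, Lta, Ltb, Ltbr, Fas, Fasl, Cd27, Cd70, Cd40 and Cd40lg. This gave 42 of the 32285 genes in the count matrices, of which 17 encode ligands, 24 encode receptors and 1, Tnfsf13os, is an antisense RNA. MC38 is a colon adenocarcinoma line of C57BL/6 mice, and single-cell RNA sequencing (scRNA-seq) had been performed on its subcutaneous tumors in young adult C57BL/6 hosts with an intact immune system. RAC1, a small GTPase, was either wild type (WT) in the tumor cells or carried the A159V substitution, knocked in at the endogenous gene with CRISPR-Cas9. Hosts were given anti-PD1, which blocks an inhibitory receptor of T cells, or IgG of the same isotype as a control. The study asked how the mutation and the antibody alter the tumor immune microenvironment, and there was 1 library for each of the 4 groups: the IgG and anti-PD1 groups of WT tumors (WT IgG and WT anti-PD1), then those of A159V tumors (A159V IgG and A159V anti-PD1). Edited cells were expanded from single sorted cells, so clone and mutation cannot be told apart, and how many mice entered each library is not given in the sources used here. With no replicate library no test was possible, and the 95% intervals given with the values cover no more than counting error.

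Most TNF superfamily ligands are trimeric proteins on the surface of immune cells, some of which are also shed, and they act on receptors of neighboring cells. Receptors such as OX40 (Tnfrsf4), 4-1BB (Tnfrsf9), GITR (Tnfrsf18) and CD27 recruit TRAF adaptors, activate nuclear factor kappa B (NF-κB) and costimulate T cells, while Fas, the TRAIL receptor Tnfrsf10b and TNF receptor 1 (Tnfrsf1a) carry a death domain and can start apoptosis. In tumors, regulatory T cells (Tregs) are known for high OX40 and GITR, and cytotoxic T cells and natural killer (NK) cells can kill through Fas ligand.

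All 42 members were matched by identifier in GENCODE M21 (GRCm38), where 41 are protein coding. They lay on 14 chromosomes, with 9 members on chromosome 4 and 8 on chromosome 17. Tnfrsf4 (chromosome 4, 156013843 to 156016612, plus strand) and Tnfrsf18 (chromosome 4, 156026164 to 156028895, plus strand) were neighbors separated by 9551 bases. On chromosome 17, Tnf (chromosome 17, 35199381 to 35202007, minus strand) stood 3060 bases from Ltb and 1157 bases from Lta. No member overlapped another counted gene on the same strand and 11 overlapped a gene on the other strand.

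The promoters of the 3 costimulatory receptors that were highest in Treg-like cells with the clearest separation, and of Tnf, which was highest in neutrophil-like cells, were read from RefSeq (GRCm38.p6). Each window runs from 250 bases before to 50 bases after a RefSeq gene start, 5′ to 3′ on the strand of the gene, and capitals mark matches to the NF-κB kappaB consensus or to the AP-1 motif TGANTCA, both searched on both strands.
Tnfrsf4, chr4:156013445-156013744, plus strand: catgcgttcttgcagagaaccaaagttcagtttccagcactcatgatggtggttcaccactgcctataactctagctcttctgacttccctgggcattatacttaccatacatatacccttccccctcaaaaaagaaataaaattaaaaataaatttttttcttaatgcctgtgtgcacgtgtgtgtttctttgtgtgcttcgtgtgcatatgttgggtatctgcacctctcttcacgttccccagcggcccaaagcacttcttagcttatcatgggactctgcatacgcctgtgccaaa
Tnfrsf18, chr4:156026072-156026371, plus strand: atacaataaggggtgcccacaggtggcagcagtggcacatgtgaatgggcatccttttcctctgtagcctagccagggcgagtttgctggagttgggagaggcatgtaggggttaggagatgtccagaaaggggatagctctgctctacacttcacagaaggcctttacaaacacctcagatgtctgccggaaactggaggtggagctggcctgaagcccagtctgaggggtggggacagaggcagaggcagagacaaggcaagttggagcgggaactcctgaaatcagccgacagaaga
Tnfrsf9 first window, chr4:150919905-150920204, plus strand: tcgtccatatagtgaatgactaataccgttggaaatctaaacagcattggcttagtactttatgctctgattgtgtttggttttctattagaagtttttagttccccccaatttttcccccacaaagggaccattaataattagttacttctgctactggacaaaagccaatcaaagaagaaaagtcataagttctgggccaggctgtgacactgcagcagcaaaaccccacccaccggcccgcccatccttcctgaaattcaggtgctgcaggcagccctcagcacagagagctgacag
Tnfrsf9 second window, chr4:150927749-150928048, plus strand: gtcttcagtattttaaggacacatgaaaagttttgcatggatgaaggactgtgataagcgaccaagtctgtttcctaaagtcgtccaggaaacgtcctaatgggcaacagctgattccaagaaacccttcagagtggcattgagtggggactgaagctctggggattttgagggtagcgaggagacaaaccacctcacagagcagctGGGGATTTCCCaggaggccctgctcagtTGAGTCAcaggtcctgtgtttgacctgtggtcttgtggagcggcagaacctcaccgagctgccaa
Tnf, chr17:35201958-35202257, minus strand: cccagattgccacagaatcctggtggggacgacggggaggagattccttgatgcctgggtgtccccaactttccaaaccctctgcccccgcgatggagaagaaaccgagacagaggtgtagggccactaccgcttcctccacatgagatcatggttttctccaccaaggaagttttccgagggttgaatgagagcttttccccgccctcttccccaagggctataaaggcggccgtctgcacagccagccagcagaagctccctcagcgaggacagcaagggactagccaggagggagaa

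Of these windows the second of Tnfrsf9 held matches: overlapping kappaB matches and an AP-1 match. Windows were at hand for 31 members (35 windows). The kappaB consensus was in 4 of the 35 (11.4%) and in 2779 of all 32851 windows (8.46%). TGANTCA was in 7 member windows (20%) and in 2565 of all windows (7.81%). The members with a kappaB match were Ltb, Tnfrsf25, Tnfrsf8 and Tnfrsf9, and those with TGANTCA were Fas, Tnfrsf8, Tnfrsf9, Tnfsf13, Tnfsf13b and Tnfsf14.

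The libraries held between 54402632 and 125227747 unique molecular identifiers (UMIs), and between 6466 and 8248 cells were analyzed in each. Cells were placed in classes from marker genes that hold no superfamily member. The ending "-like" marks that RNA alone defined a class. CD45+ and CD45- cells had been separated and remixed at a set ratio, so the share of a class is set in part by that mixing. The WT anti-PD1 library stood apart: it held 30 tumor-like cells against 1462, 2612 and 2000 in WT IgG, A159V IgG and A159V anti-PD1, 198 monocyte-like cells against 1639 to 2169, and 1677 fibroblast-like cells against 154 to 189. Each class level is its summed UMIs scaled so that all genes of a class sum to the same total (CPM), and the values of the 4 libraries are always given with WT before A159V and within each IgG before anti-PD1. Fewer cells that transcribe a gene and less RNA of it per cell cannot be told apart in such sums. Counts are of 3′ ends and are not scaled to length, so a gene is compared with itself across classes and libraries.

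The gate named the classes by their defining markers. Summed over the libraries, Cd8a was at 486 CPM in CD8 T-like cells and 1.64 CPM in Treg-like cells, Foxp3 at 340.3 CPM in Treg-like and 6.92 CPM in CD8 T-like cells, C1qa at 1878 CPM in macrophage-like and 23.5 CPM in monocyte-like cells, and S100a8 at 9058 CPM in neutrophil-like and 32.2 CPM in monocyte-like cells. Tumor-like cells were found through Rhox5, Prl2c2 and Prl2c3, because the epithelial markers Krt7, Krt8, Krt18, Krt19 and Epcam each had a UMI in under 1% of cells. RNA that strays between droplets was gauged from genes outside the gate. Cd2, Lck and Skap1, summed, were at 0.333% to 1.06% of their T cell level in macrophage-like cells, 1.01% to 2.74% in monocyte-like cells and 0.114% to 0.122% in tumor-like cells, but at 1.91% to 12.6% in mature dendritic cell (DC)-like cells, with the highest value in A159V IgG. NK-like cells carried the same sum at 42.3% to 70.0% of the T cell level, so it does not mark T cells alone.

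All 42 members had a UMI. Of these, 24 reached 20 UMIs in their highest class in every library (10 ligands and 14 receptors), over the 9 classes with 50 cells in each library, and these 24 are called measured below. The highest class was the same in all 4 libraries for 16 of the 24. Treg-like cells were highest for 6 (Tnfrsf9, Tnfrsf4, Tnfrsf18, Cd27, Tnfrsf13b and Ltb), neutrophil-like cells for 4 (Tnf, Tnfrsf1a, Tnfrsf1b and Tnfrsf23), and macrophage-like (Tnfsf12 and Tnfsf13), mature DC-like (Cd40 and Tnfrsf11a) and fibroblast-like cells (Tnfsf13b and Tnfrsf11b) for 2 each. For 7 of the 16 the counting interval of the highest class lay above that of the next class in every library: Tnfrsf4, Tnfrsf18, Tnfrsf9, Tnf, Tnfrsf23, Cd40 and Tnfrsf11a. For the other 9 the order of the leading neighbors was within counting error in at least 1 library.

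**Figure D1:**
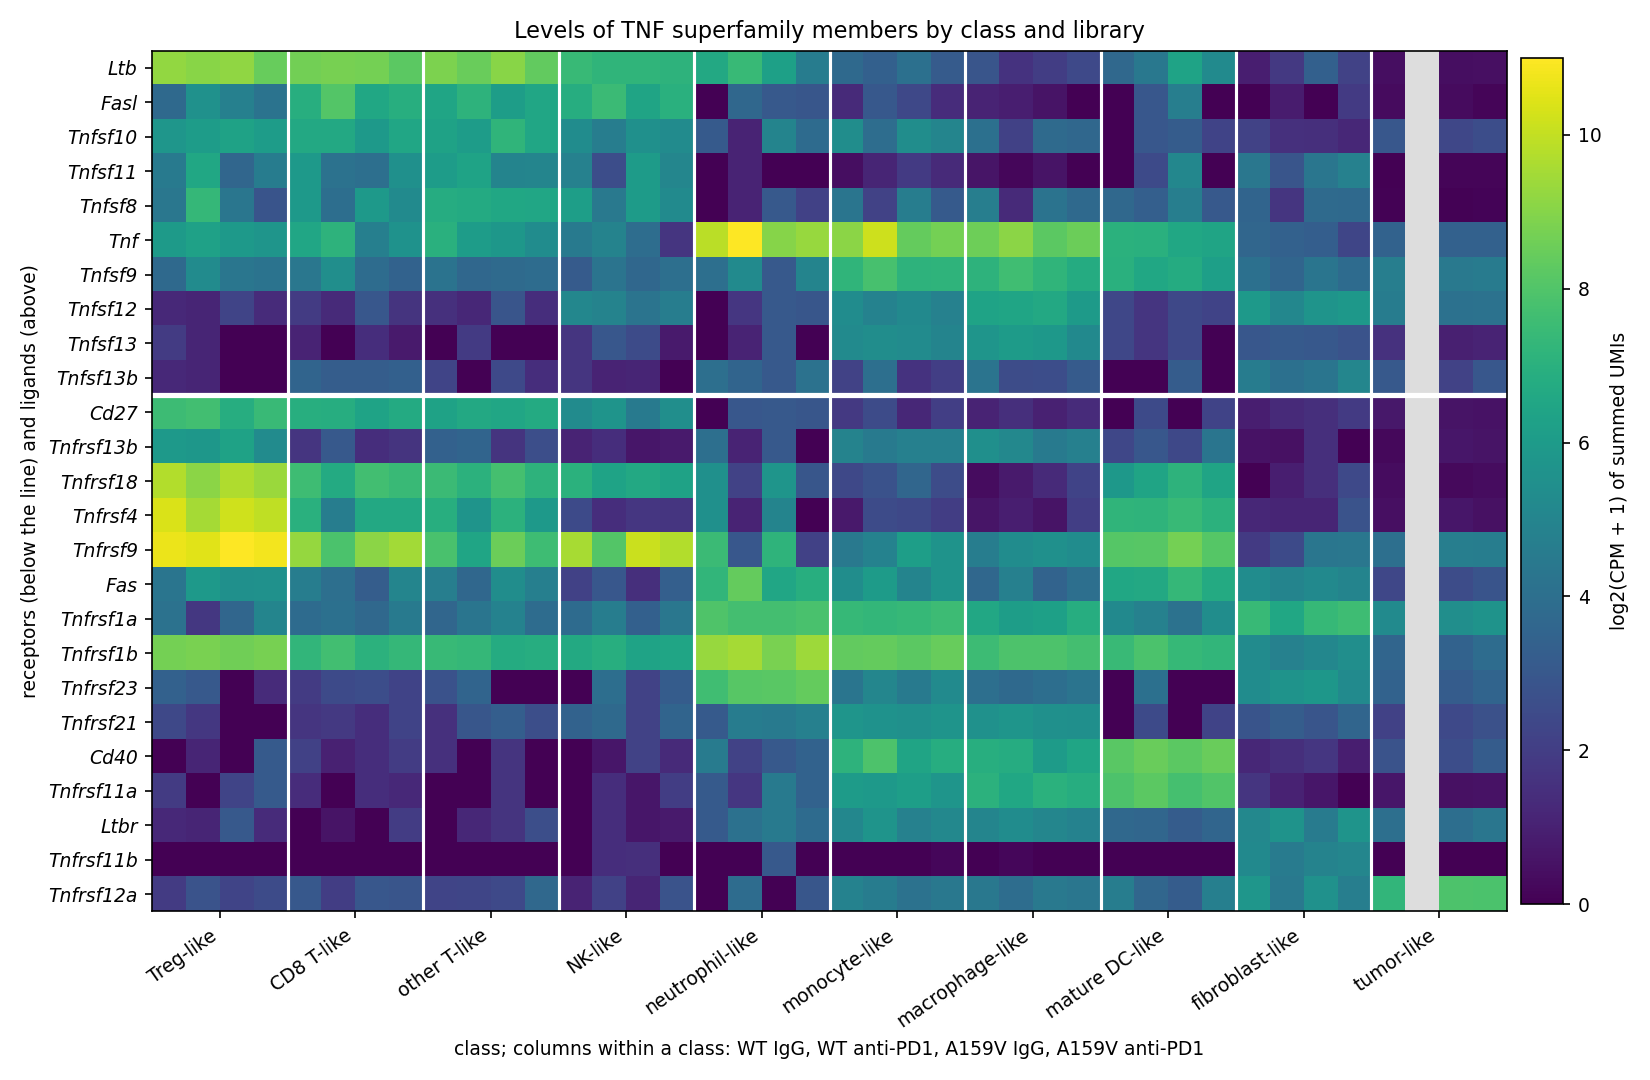
Levels of the measured members by class and library, as log2(CPM + 1) in color, with classes under 50 cells left gray. Tnfrsf4, Tnfrsf18 and Tnfrsf9 were highest in Treg-like cells and Tnf in neutrophil-like cells of all 4 libraries.

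Among the costimulatory receptors, Tnfrsf4 (OX40) was high in Treg-like cells and near absent from NK-like cells. In Treg-like cells it stood at 1311 (1229 to 1398), 727 (669.9 to 788), 1171 (1044 to 1309) and 979.6 (905 to 1059) CPM. Mature DC-like cells were next in every library, at 145, 143, 171 and 133 CPM, with the T cell genes given above at up to 12.6% of their T cell level there, whose part in this value was not tested. In CD8 T-like cells it stood at 126, 24.5, 99.3 and 98.4 CPM and in NK-like cells at 4.47, 1.71, 2.37 and 2.26 CPM. The lowest Treg-like level, in WT anti-PD1, was thus above every mature DC-like and CD8 T-like level, and WT anti-PD1 was the lowest of the 4 libraries in Treg-like and in CD8 T-like cells. After each cell was thinned to 1500 UMIs, a UMI of Tnfrsf4 was found in 71.8% (64.5 to 78.3), 51.8% (44.6 to 58.9), 58.3% (46.1 to 69.8) and 64.4% (56.8 to 71.5) of Treg-like cells, with 24, 11, 39 and 21 shallower cells left out, and in 0% to 0.787% of NK-like cells. Unthinned shares in Treg-like cells were 83.1%, 74.8%, 73.9% and 73.8%, at median depths of 1778 to 3302 UMIs in Treg-like and 3439 to 4534 UMIs in NK-like cells.

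Tnfrsf18 (GITR), its chromosomal neighbor, was likewise higher in Treg-like than in CD8 T-like and NK-like cells, with 839, 539, 825 and 641 CPM in Treg-like, 192, 104, 202 and 176 CPM in CD8 T-like and 128, 82.1, 99.4 and 79.0 CPM in NK-like cells. Tnfrsf9 (4-1BB) was spread wider. It reached 1618, 1464, 2003 and 1776 CPM in Treg-like, 609, 236, 542 and 706 CPM in CD8 T-like and 762, 262, 1107 and 843 CPM in NK-like cells. The NK-like level was above the CD8 T-like level by more than their intervals in every library but WT anti-PD1, where they overlapped. Cd27, the receptor of CD70, was at 186, 202, 113 and 173 CPM in Treg-like and 117, 115, 82.1 and 105 CPM in CD8 T-like cells, 2 neighbors whose intervals overlapped in at least 1 library. Tnfrsf13b (TACI), best known from B cells, was at 60.1, 56.0, 79.1 and 38.9 CPM in Treg-like and 43.1, 34.6, 21.9 and 27.0 CPM in macrophage-like cells. B-like cells, 21 to 48 in a library, were too few to be ranked. They held 2.05%, 8.91%, 1.02% and 7.91% of the Tnfrsf13b UMIs. The 111 to 210 Treg-like cells in a library held 8.83%, 9.11%, 7.14% and 5.07%. In the anti-PD1 libraries 26 and 48 B-like cells thus held a share near or above that of 210 and 195 Treg-like cells. In the IgG libraries the B-like share was the smaller, from 21 cells each. The first place of Treg-like cells for Tnfrsf13b holds among the ranked classes only, which leave B-like cells out.

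Ligands of these receptors stood beside them in mature DC-like cells, where Tnfrsf9 was at 274, 279, 417 and 270.2 CPM. Tnfsf4 (OX40 ligand) was at 133, 40.9, 196 and 152 CPM in mature DC-like cells (33, 18, 47 and 41 UMIs) and at 39.1, 1.71, 87.6 and 77.5 CPM in NK-like cells. In both classes WT anti-PD1 was lowest and A159V IgG highest, though the intervals of the 2 A159V libraries overlapped. In mature DC-like cells the interval of WT IgG overlapped that of A159V IgG too. Tnfsf9 (4-1BB ligand) stood at 147, 221, 139 and 143 CPM in monocyte-like, 139, 196, 147 and 108 CPM in macrophage-like and 125, 93.1, 108 and 74.0 CPM in mature DC-like cells. Cd70 rested on 12, 3, 30 and 10 UMIs in mature DC-like and 4, 4, 5 and 1 UMIs in Treg-like cells, and Tnfsf18 (GITR ligand) on 78 UMIs over all cells, 29 of them in fibroblast-like cells of WT IgG. Cd40lg, the helper T cell signal to CD40, was at 228, 222, 63.4 and 153 CPM in CD4 T-like cells (39, 100, 5 and 24 UMIs). Its receptor Cd40 was at 291, 359, 296 and 363 CPM in mature DC-like, 137, 239.9, 84.7 and 113 CPM in monocyte-like and 116, 111, 63.7 and 87.8 CPM in macrophage-like cells, and the mature DC-like level varied less among libraries than the monocyte-like level did. Tnfsf8 (CD30 ligand) stood at 627, 661, 178 and 275 CPM in CD4 T-like cells, of which A159V IgG held 42 cells, and its receptor Tnfrsf8 at 44.7, 68.2, 48.9 and 63.7 CPM in Treg-like cells.

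**Figure D2:**
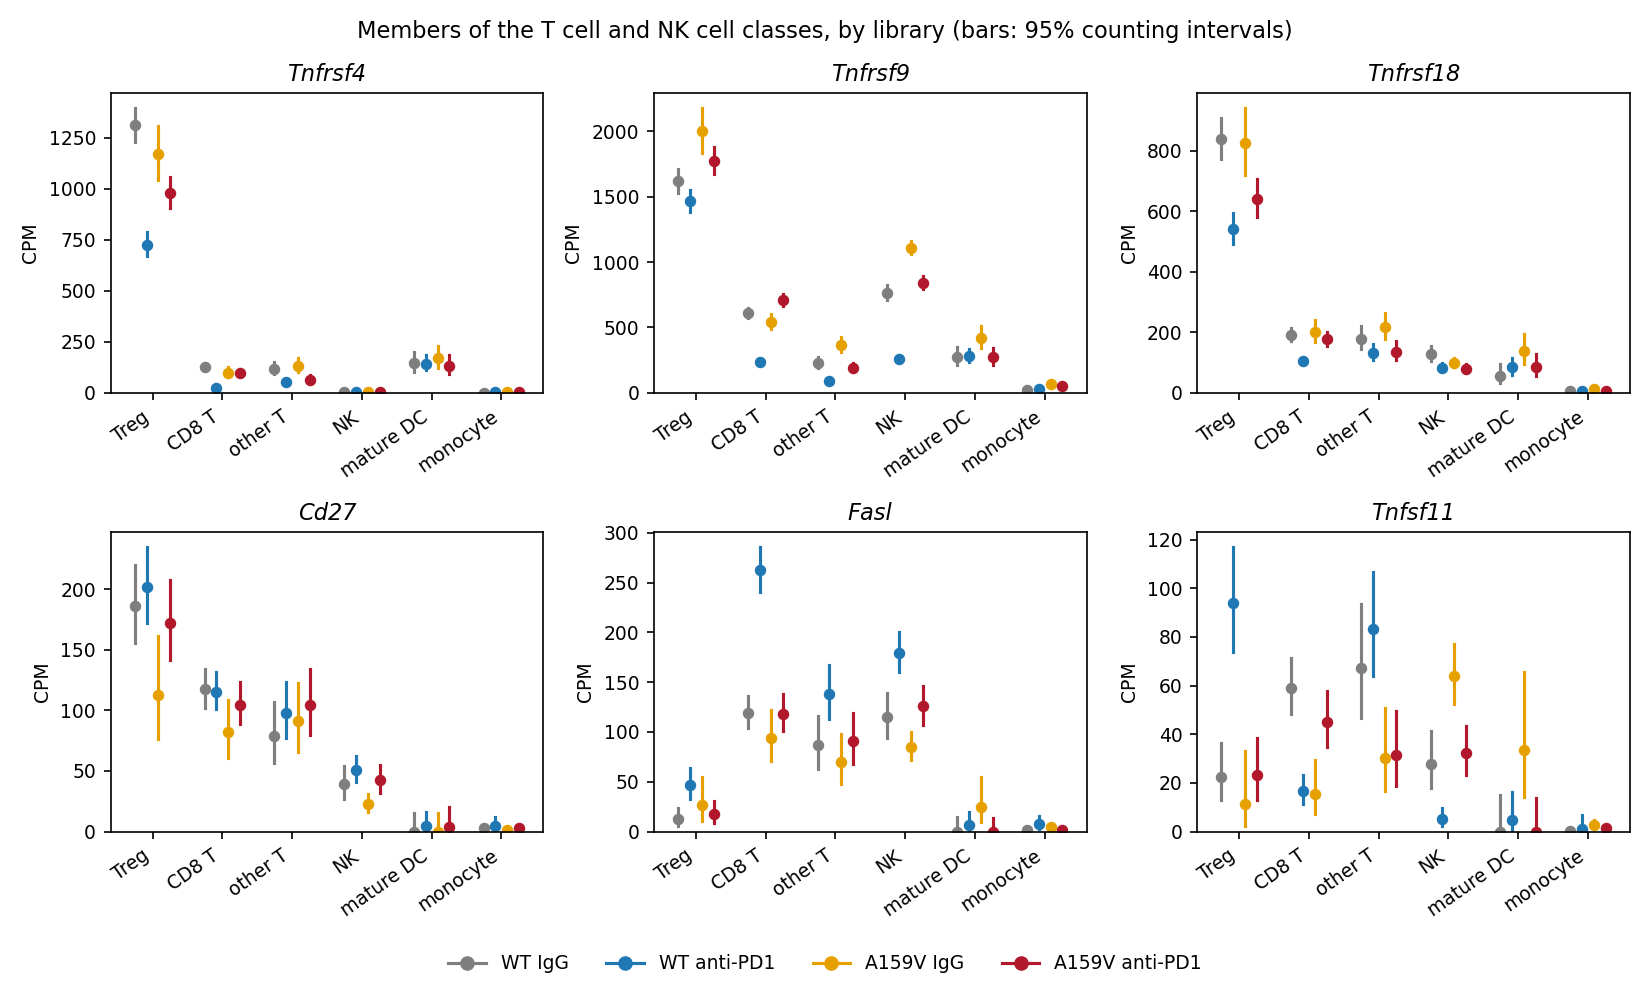
Levels in CPM of members in the lymphoid classes, 1 point per library with its 95% counting interval. Tnfrsf4 in CD8 T-like cells was at 24.5 CPM in WT anti-PD1 and between 98.4 and 126 CPM in the other libraries.

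Tnf itself was higher in neutrophil-like, monocyte-like and macrophage-like cells than in any T-like or NK-like class of the libraries. It stood at 929 (772 to 1109), 2109 (2013 to 2209), 513 (399 to 649) and 639.9 (552 to 737) CPM in neutrophil-like cells. Monocyte-like cells had 538, 1136, 337 and 419 CPM, macrophage-like cells 379, 543, 298 and 372 CPM and CD8 T-like cells 91.2, 135, 25.7 and 48.1 CPM. In each of these 4 classes A159V IgG was the lowest library and WT anti-PD1 the highest, though in neutrophil-like and in CD8 T-like cells the intervals of the 2 A159V libraries overlapped. Macrophage genes outside the gate (Ms4a7, Ctss, Cybb and Lyz2, summed) were at 3.33%, 1.41%, 3.93% and 2.69% of their macrophage-like level in CD8 T-like cells, and their part in the Tnf values there was not tested. Macrophage-like and monocyte-like cells together held most Tnf UMIs of both IgG libraries, with 20.2% and 47.1% of them in WT IgG and 17.1% and 36.8% in A159V IgG, against 2.41% and 0.430% in CD8 T-like cells. Tumor-like cells held 7.53% of them in WT IgG and 23.8% in A159V IgG. Such shares depend on class size, which was 1462 and 2612 tumor-like cells. The Tnf level of tumor-like cells was not called different between these libraries. After thinning, 35.2% (31.7 to 38.7), 42.7% (39.7 to 45.7), 26.6% (23.1 to 30.3) and 31.8% (28.7 to 35.1) of macrophage-like cells had a UMI of Tnf, with 99, 206, 161 and 127 left out, against 1.08% to 2.79% of fibroblast-like cells. Unthinned shares were 53.5%, 61.8%, 35.6% and 43.8%, at median depths of 2337 to 4185 UMIs in macrophage-like cells and 7870.0 to 14142 UMIs in fibroblast-like cells.

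A list of immediate early and heat shock genes, which rise when tissue is dissociated, was also high in these classes: 13806, 15832, 11059 and 12629.8 CPM in neutrophil-like, 7492, 8472, 5796 and 6379 CPM in monocyte-like, 5958, 8766, 5962 and 5202 CPM in macrophage-like and 1448, 1340.2, 772 and 971 CPM in CD8 T-like cells. Its part in the Tnf values was not tested. Lta, the lymphotoxin that shares both TNF receptors, had 350 UMIs over all cells. Of these, 105 and 89 came from tumor-like cells of A159V IgG and A159V anti-PD1 and 8 from those of WT IgG, which is 1.22, 0.999 and 0.156 CPM. Ltb, which forms a membrane complex with it, was at 593, 522, 579.8 and 347 CPM in Treg-like and 398, 426, 418 and 302 CPM in CD8 T-like cells, with overlapping intervals in at least 1 library.

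Both TNF receptors were at their highest level in neutrophil-like cells too. Tnfrsf1b (TNF receptor 2) stood at 635, 725, 438 and 673 CPM there, 412, 436, 388 and 424 CPM in Treg-like, 325, 337, 296 and 350.4 CPM in monocyte-like and 150.1, 202, 133 and 162 CPM in CD8 T-like cells, so that among lymphoid classes it was highest in Treg-like cells of every library. Tnfrsf1a stood at 249, 206, 208 and 228 CPM in neutrophil-like, 169, 93.7, 163 and 189 CPM in fibroblast-like and 37.9, 42.4 and 48.9 CPM in tumor-like cells of WT IgG, A159V IgG and A159V anti-PD1. Its neutrophil-like interval overlapped that of the next class in every library, as that of Tnfrsf1b did in A159V IgG. Ltbr, the lymphotoxin beta receptor, was low in lymphoid classes and stood at 31.0, 39.7, 31.9 and 28.6 CPM in macrophage-like and 34.3, 48.6, 23.0 and 50.5 CPM in fibroblast-like cells. Its class of highest level changed between libraries.

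Fasl was at 119, 263, 94.1 and 118 CPM in CD8 T-like and 115, 179, 84.6 and 126 CPM in NK-like cells, whose intervals were apart in WT anti-PD1 and overlapped in the other libraries. Fas stood at 151, 332, 89.2 and 117 CPM in neutrophil-like, 92.8, 99.9, 158 and 104 CPM in mature DC-like and 18.2, 60.9, 45.2 and 46.6 CPM in Treg-like cells, and at 4.0, 4.86 and 6.28 CPM in tumor-like cells. Tnfsf10 (TRAIL) was at 100.1, 99.4, 61.6 and 89.0 CPM in CD8 T-like and 40.4, 14.2, 40.9 and 31.6 CPM in monocyte-like cells. Other T-like cells led the 9 ranked classes in A159V IgG (145 CPM) and A159V anti-PD1 (90.6 CPM), overlapping the next class. Outside the ranked classes, endothelial-like cells of WT anti-PD1 reached 174 CPM and held 36.8% of the Tnfsf10 UMIs of that library. The TRAIL death receptor Tnfrsf10b was at 17.4, 18.7 and 23.2 CPM in tumor-like and 12.6, 25.6, 7.53 and 7.77 CPM in Treg-like cells (9, 21, 2 and 5 UMIs), and the TRAIL decoy receptor Tnfrsf23 was highest in neutrophil-like cells, at 196, 278, 289.8 and 342 CPM. The neighboring decoy Tnfrsf22 had 4.86, 4.89 and 6.92 CPM in tumor-like cells. Tnfrsf26, the other gene of this cluster on chromosome 7, was at 106, 202, 186 and 181 CPM in neutrophil-like cells, and a gene on the other strand overlaps all 3. Tnfrsf21, a further death receptor, was at 52.6, 47.3, 45.1 and 51.4 CPM in monocyte-like and 46.4, 52.8, 45.3 and 43.9 CPM in macrophage-like cells.

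The members known from bone and B cells were spread over T-like, myeloid and fibroblast-like classes. Tnfrsf11a (RANK) stood at 242, 302, 213 and 259 CPM in mature DC-like and 135, 91.7, 127 and 114 CPM in macrophage-like cells. Its ligand Tnfsf11 (RANKL) was at 146, 495, 88.8 and 275 CPM in CD4 T-like (25, 223, 7 and 43 UMIs) and 58.9, 16.5, 15.4 and 45.2 CPM in CD8 T-like cells, and its soluble decoy Tnfrsf11b (osteoprotegerin) was at 36.1, 23.2, 28.9 and 32.2 CPM in fibroblast-like cells. Tnfsf13 (APRIL) stood at 52.8, 63.9, 56.8 and 35.8 CPM in macrophage-like cells and Tnfsf13b (BAFF), which keeps B cells alive, at 23.8, 15.9, 18.3 and 31.8 CPM in fibroblast-like cells. The B cell receptors Tnfrsf13c, which binds Tnfsf13b, and Tnfrsf17, which binds both ligands, had 120 and 363 UMIs over all cells. There were 21 to 48 B-like cells in a library. Tumor-like cells held 64.4%, 93.6% and 68.5% of the Tnfrsf17 UMIs in WT IgG, A159V IgG and A159V anti-PD1. Their level was 1.27, 1.03 and 1.12 CPM.

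Tumor-like cells stood out for Tnfrsf12a, the receptor of TWEAK. It stood at 148 CPM in WT IgG, 239.6 CPM in A159V IgG and 238 CPM in A159V anti-PD1, and tumor-like cells held 83.2%, 96.3% and 97.5% of its UMIs in these libraries. In fibroblast-like cells it was at 54.6, 20.7, 46.0 and 25.3 CPM and in macrophage-like cells at 20.5, 14.4, 20.9 and 19.0 CPM. The 30 tumor-like cells of WT anti-PD1 gave 125 CPM from 215 UMIs, a value not used in a ratio. Its ligand Tnfsf12 (TWEAK) was at 82.4, 86.7, 98.6 and 63.1 CPM in macrophage-like and 59.8, 33.1, 51.3 and 57.5 CPM in fibroblast-like cells. The log2 ratio of Tnfrsf12a between A159V IgG and WT IgG was 0.69 (0.65 to 0.73), short of the 2-fold threshold, and -0.01 (-0.04 to 0.02) was found for A159V anti-PD1 over A159V IgG.

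**Figure D3:**
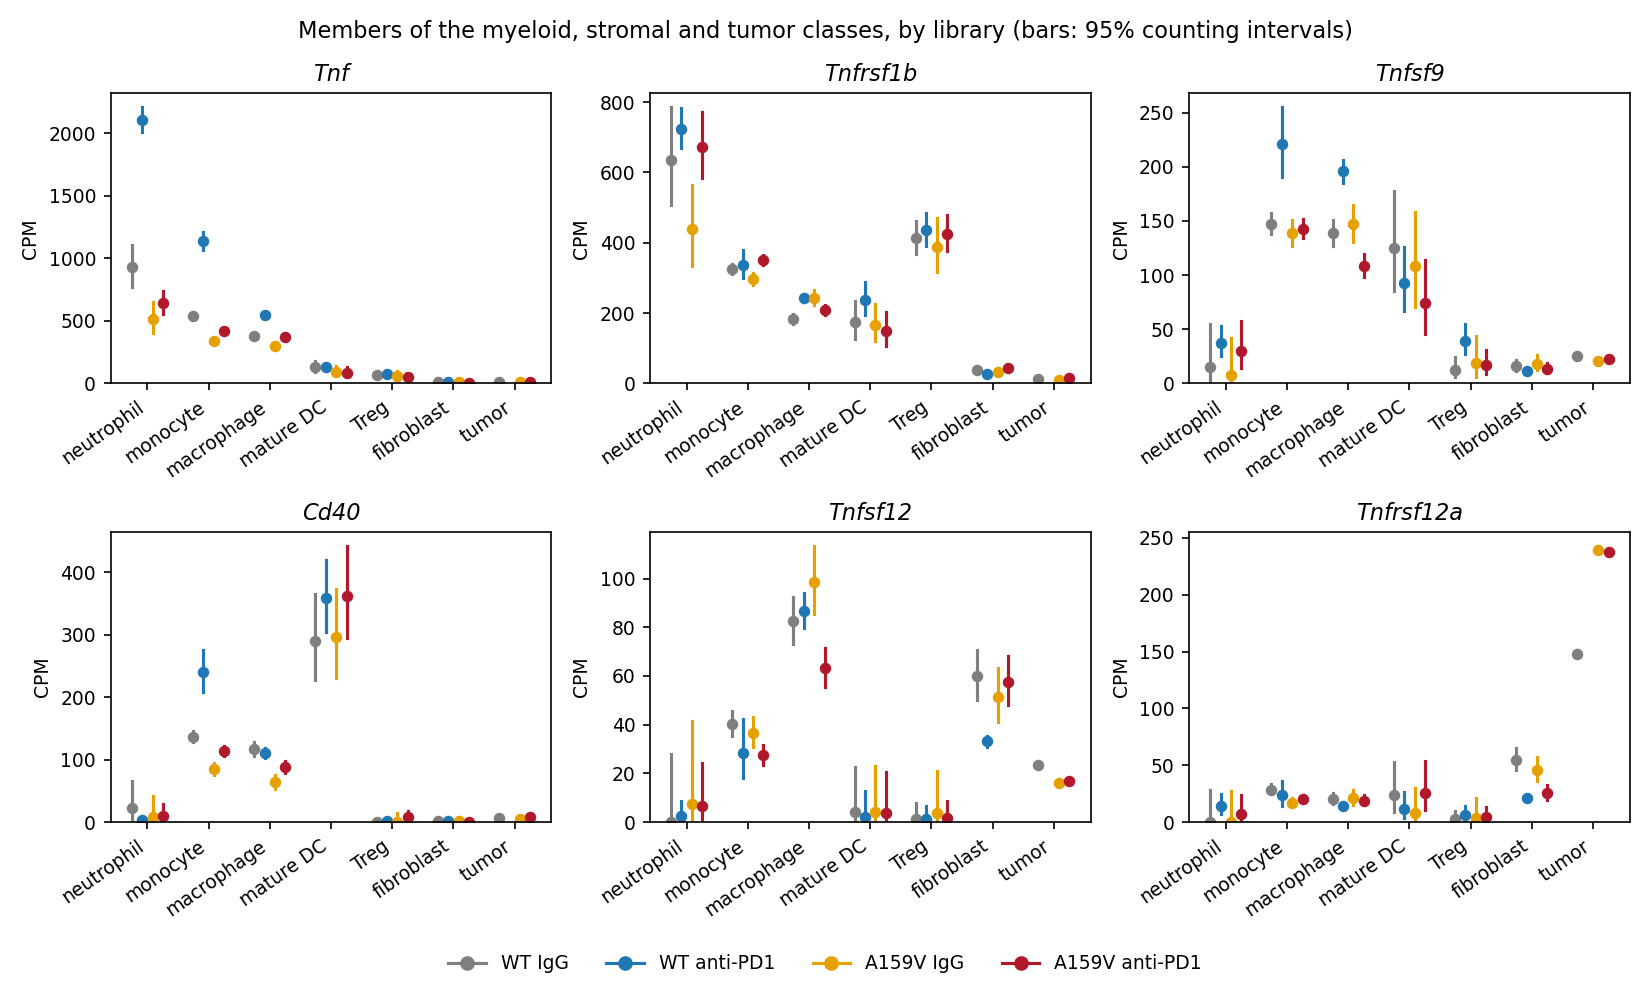
Levels in CPM of members in the myeloid and tumor-like classes, 1 point per library with its 95% counting interval. Tnf in monocyte-like cells ran from 337 CPM in A159V IgG to 1136 CPM in WT anti-PD1, and Tnfrsf12a in tumor-like cells from 148 CPM in WT IgG to 239.6 CPM in A159V IgG.

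The remaining members were sparse. Besides those described, Tnfsf14 (LIGHT) had 556 UMIs over all cells, Tnfrsf14 396, Tnfsf15 239, Tnfrsf25 212, Tnfrsf19 27 and Tnfsf13os 533. Tnfsf14 was highest in neutrophil-like cells of every library, at 37.8, 55.0, 22.3 and 40.2 CPM (5, 47, 3 and 12 UMIs), and its interval was apart from that of the next class in both anti-PD1 libraries. The highest class of Tnfrsf14, Tnfsf15 and Tnfrsf25 changed between libraries.

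To ask what the mutation and anti-PD1 changed within a class, genes with at least 50 UMIs over both libraries were compared, and a gene was called when its level differed at least 2-fold (log2 ratio of CPM + 1). The same call over all genes of the class is given as the background. In tumor-like cells 26 members could be compared between A159V IgG and WT IgG. None was called higher or lower, while 2.46% of all genes were called higher and 3.14% lower. Between A159V anti-PD1 and A159V IgG 0 of 30 members were called, against 0.097% of all genes higher and 0.0517% lower. The members' median log2 ratio was -0.08 in the first comparison (all genes, -0.02) and 0.09 in the second (0.05). Members furthest from 0 between A159V IgG and WT IgG were Lta, at 0.94 (0.74 to 1.15), and Tnfsf13b, at -0.89 (-1.07 to -0.71). Tnfsf13b was at a level of a few CPM. The tumor-like Lta levels given above were near or under the 1 CPM added before the ratio, which draws that ratio toward 0. Most tumor-like cells of WT IgG (52.5%) lay in a cluster led by Tafa1, Sema3a and Edil3, whereas the leading cluster of A159V IgG and A159V anti-PD1 (34.7% and 39.4%) was led by Hist1h1b, Shisal2b and Dffb.

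In CD8 T-like cells the genotype comparison called 2 of 11 members, Tnf and Tnfsf11, both lower in A159V IgG, against 0.681% of all genes higher and 1.62% lower. Tnf was at 91.2 CPM (164 UMIs in 90 of 348 cells) in WT IgG and 25.7 CPM (15 UMIs in 13 of 183 cells) in A159V IgG, a log2 ratio of -1.79 (-2.52 to -1.05). Tnfsf11 fell from 58.9 CPM (106 UMIs in 56 cells) to 15.4 CPM (9 UMIs in 6 cells), a log2 ratio of -1.87 (-2.79 to -0.94). The immediate early and heat shock sum was also lower in A159V IgG (1448 and 772 CPM), as was the median depth of these cells (4230 and 2533 UMIs), and the part of either was not tested. Cluster 3, led by Themis, Cd3g and Cd8b1, held most CD8 T-like cells of every library. Anti-PD1 in A159V tumors called 1 of 11 members higher, Tnfsf11 at 1.5 (0.54 to 2.45), with 35 of 349 cells positive, against 1.94% of all genes higher and 0.508% lower. The members' median log2 ratio was -0.33 between genotypes (all genes, 0.01) and 0.33 with anti-PD1 in A159V tumors (0.07).

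More members and more of all genes were called between WT anti-PD1 and WT IgG. In CD8 T-like cells 3 of 15 members were called higher and 4 lower, against 7.64% of all genes higher and 7.49% lower, and their median was -0.0088 (all genes, 0.2). Tnfrsf4 was lowest against WT IgG, at -2.32 (-2.75 to -1.89), with 25 of 495 cells positive after 84 of 348. Tnfsf8 had -2.02 (-2.57 to -1.46), Tnfsf11 -1.78 (-2.31 to -1.24) and Tnfrsf9 -1.36 (-1.52 to -1.21), where 61 of the 472 Tnfrsf9 UMIs of WT anti-PD1 came from 1 cell. In the other direction Fasl had 1.14 (0.91 to 1.36), with 272 of 495 cells positive after 139 of 348. Tnfrsf26 had 1.1 (0.31 to 1.88) and Tnfsf9 1.07 (0.53 to 1.62). With predicted doublets kept, Tnfrsf4 came to -1.36, still past the threshold, and Tnfrsf9 to -0.91, short of it. Tnfsf11 turned to 0.23 with Leiden clusters, which also took Tnfrsf26 to 0.91 and Tnfsf9 to 0.85. The ratios of WT anti-PD1 depended on scaling: median-of-ratios scaling, which sets the middle of the ratios of well counted genes to 0, subtracted 0.21 from each log2 ratio in CD8 T-like, 0.20 in Treg-like, 0.23 in NK-like, 0.22 in monocyte-like and -0.12 in macrophage-like cells. With it, CD8 T-like cells had 0 members higher and 5 lower: Fasl came to 0.93 and Tnfrsf18 to -1.09.

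Treg-like cells, which in every library lay for 88.3% to 91.5% in cluster 11 (led by Frmd5, Ikzf2 and Il2ra), kept their costimulatory receptors within 2-fold. No member of 9 was called between A159V IgG and WT IgG (all genes, 1.08% higher and 2.11% lower) or of 9 between A159V anti-PD1 and A159V IgG (2.88% higher and 1.26% lower). For Tnfrsf4 these log2 ratios were -0.16 (-0.35 to 0.02) and -0.26 (-0.45 to -0.06), and for Tnfrsf9 0.31 (0.16 to 0.46) and -0.17 (-0.32 to -0.03). Between WT anti-PD1 and WT IgG 3 of 13 members were called higher, against 6.91% of all genes higher and 8.77% lower. In the order given, the members' medians in these comparisons were -0.03, -0.19 and 0.12 (all genes, -0.01, 0.05 and 0.17). Fas had a UMI in 10 of 201 cells of WT IgG and 30 of 210 of WT anti-PD1, at 1.69 (0.85 to 2.53). Tnfsf11 had 2.02 (1.27 to 2.77), with 34 of its 77 UMIs from 1 cell, and 0.73 as a mean over cells, and Tnfsf8 had 2.97 (2.22 to 3.73), with 74 of its 132 UMIs from 1 cell and 9 of 210 cells positive. Tnfrsf4 had -0.85 (-1.0 to -0.7), and median-of-ratios scaling took it past the threshold, to -1.05.

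Macrophage-like cells differed in 1 member each way between A159V IgG and WT IgG, of 20 compared (all genes, 0.966% higher and 1.19% lower). Tnfsf13b (BAFF) fell from 64 to 10 UMIs, at -1.64 (-2.46 to -0.83), and Tnfrsf26 had 1.11 (0.47 to 1.75). The Tnfrsf26 call was lost with Leiden clusters (0.43), means over cells (0.63), a pseudocount of 5 CPM (0.85) and the class joined with monocyte-like cells (0.68). Between A159V anti-PD1 and A159V IgG 0 of 18 were called (1.56% higher and 0.735% lower). Between WT anti-PD1 and WT IgG 2 of 22 were higher and 4 lower (6.48% higher and 6.86% lower). Fas, at 1.12 (0.67 to 1.57), and Tnfrsf26, at 1.18 (0.66 to 1.7), were the higher ones. Leiden clusters in place of the gate took them to 0.71 and 0.0095, a pseudocount of 5 CPM to 0.92 and 0.91, and macrophage-like with monocyte-like cells as 1 class to 0.025 and 0.7, all short of the threshold. Among the lower ones were the ligands Tnfsf8, at -3.39 (-3.99 to -2.78), Tnfsf10, at -1.93 (-2.51 to -1.36), and Tnfsf13b, at -1.67 (-2.2 to -1.15), and the antisense RNA Tnfsf13os had -1.86 (-2.45 to -1.27). Of these, Tnfsf13b came to -0.49 in the joined class. The members' medians were -0.06, -0.12 and 0.09 in these comparisons (all genes, -0.01, -0.01 and -0.07). The classes were not of like make-up: the leading macrophage-like cluster was led by Mmp12, Arg1 and Ccl6 in WT anti-PD1 (43.8% of the class) and by C1qa, C1qc and C1qb in the other 3 libraries (29.7% to 51.0%).

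In monocyte-like cells the genotype comparison called 2 of 24 members higher in A159V IgG and 0 lower (all genes, 1.01% and 0.714%). These were Tnfrsf9, at 1.73 (1.43 to 2.03), and Tnfrsf18, at 1.24 (0.64 to 1.85), both of them highest in Treg-like cells. Cd2, Lck and Skap1, T cell genes also found in NK-like cells, moved with them from a summed 1.01% to 2.74% of their T cell level. Their part in these calls was not tested. The Tnfrsf9 UMIs came from 72 of 1639 cells of A159V IgG, 35 of the 270 UMIs from 1 cell. Anti-PD1 in A159V tumors called Tnfsf8, at -1.55 (-2.0 to -1.1), and Tnfrsf18, at -1.05 (-1.62 to -0.48), lower and none higher, 2 of 24 (0.895% higher and 0.685% lower), and the same T cell genes went from 2.74% to 1.71%, whose part was again not tested. In WT tumors 1 of 22 was higher and 2 lower (6.74% and 6.88%). Tnf had 1.08 (0.97 to 1.18), with 145 of 198 cells positive after 925 of 1761, and 0.86 under median-of-ratios scaling. Tnfsf10 had -1.45 (-2.23 to -0.66) and Tnfsf8 -2.08 (-3.38 to -0.79). The members' medians were -0.09, 0.12 and 0.09 (all genes, 0.02, 0.02 and 0.08).

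NK-like cells had 2 of 11 members higher and 0 lower in A159V IgG against WT IgG (all genes, 1.49% and 1.08%), both of them ligands. Tnfsf4 had 1.14 (0.62 to 1.66), with 65 of 332 cells positive after 19 of 163, and Tnfsf11 had 1.17 (0.56 to 1.78). Between WT anti-PD1 and WT IgG 1 of 12 was higher, Tnfrsf26 at 1.89 (1.13 to 2.65), and 2 were lower, Tnfsf8 at -1.73 (-2.3 to -1.16) and Tnfrsf9 at -1.54 (-1.71 to -1.37), against 14.8% of all genes higher and 5.71% lower. Tnfsf4 was under the UMI minimum there, with 35 UMIs in WT IgG and 3 in WT anti-PD1. Anti-PD1 in A159V tumors called 0 of 11 (1.27% higher and 0.839% lower), and median-of-ratios scaling, a shift of 0.16, took Tnfsf11 from -0.96 to -1.12. The members' medians were -0.22, 0.04 and -0.17 (all genes, -0.02, 0.36 and 0.13). For Tnfsf11, the direction of the genotype difference was up in NK-like cells and down in CD8 T-like cells, a contrast between classes that was not tested. Comparisons of WT anti-PD1 and of A159V IgG share the WT IgG library, and those of both A159V libraries share A159V IgG.

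The remaining classes with 50 cells in each library had few calls. In neutrophil-like cells no member was called between A159V IgG and WT IgG (0 of 4; all genes, 5.46% higher and 3.28% lower) or between A159V anti-PD1 and A159V IgG (0 of 5; 2.98% and 3.49%). Between WT anti-PD1 and WT IgG 2 of 8 were higher, against 18.3% of all genes higher and 10.6% lower: Tnf, at 1.18 (0.92 to 1.44), and Fas, at 1.13 (0.48 to 1.78). Other T-like cells carried T cell markers but met none of the rules for a CD8, CD4, Treg or gamma-delta T cell. Single Treg or gamma-delta markers did occur in them, with Ikzf2 at 1929 CPM and Trdc at 59.7 CPM summed over the libraries. In A159V IgG against WT IgG they had Tnf at -1.16 (-1.8 to -0.51) and Cd40lg at -1.22 (-2.05 to -0.38), 2 of 11 members lower and 0 higher (1.6% of all genes higher and 0.746% lower). Between WT anti-PD1 and WT IgG they had Tnfrsf9 at -1.36 (-1.8 to -0.93) and Tnfrsf4 at -1.2 (-1.78 to -0.63), 2 of 13 lower and 0 higher (7.13% and 5.8%), the receptors that were also lower in CD8 T-like cells of that library. Between A159V anti-PD1 and A159V IgG Tnfrsf4 was lower in them, at -1.1 (-1.7 to -0.51), 1 of 9 (1.27% and 0.841%).

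Fibroblast-like cells had 0 of 11 members called between genotypes, and with anti-PD1 in A159V tumors Ltbr was higher, at 1.1 (0.6 to 1.61), 1 of 13. Between WT anti-PD1 and WT IgG 1 of 21 was higher, Tnfrsf22 at 1.08 (0.12 to 2.05) on 2 UMIs in WT IgG, and 3 were lower: Tnfsf8 at -1.85 (-2.43 to -1.26), Tnfsf11 at -1.43 (-1.88 to -0.99) and Tnfrsf12a at -1.35 (-1.63 to -1.08). Of all genes, 0.601% were higher and 0.839% lower between genotypes, 1.33% and 1.35% between the A159V libraries, and 6.53% and 4.54% between the WT libraries. In mature DC-like cells the single call was Tnfsf4, lower with anti-PD1 in WT tumors at -1.68 (-2.49 to -0.87), 1 of 10 members, against 7.56% of all genes higher and 4.42% lower. No member was called there between genotypes (0 of 9; 2.1% and 3.91%) or with anti-PD1 in A159V tumors (0 of 8; 2.11% and 1.46%).

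**Figure D4:**
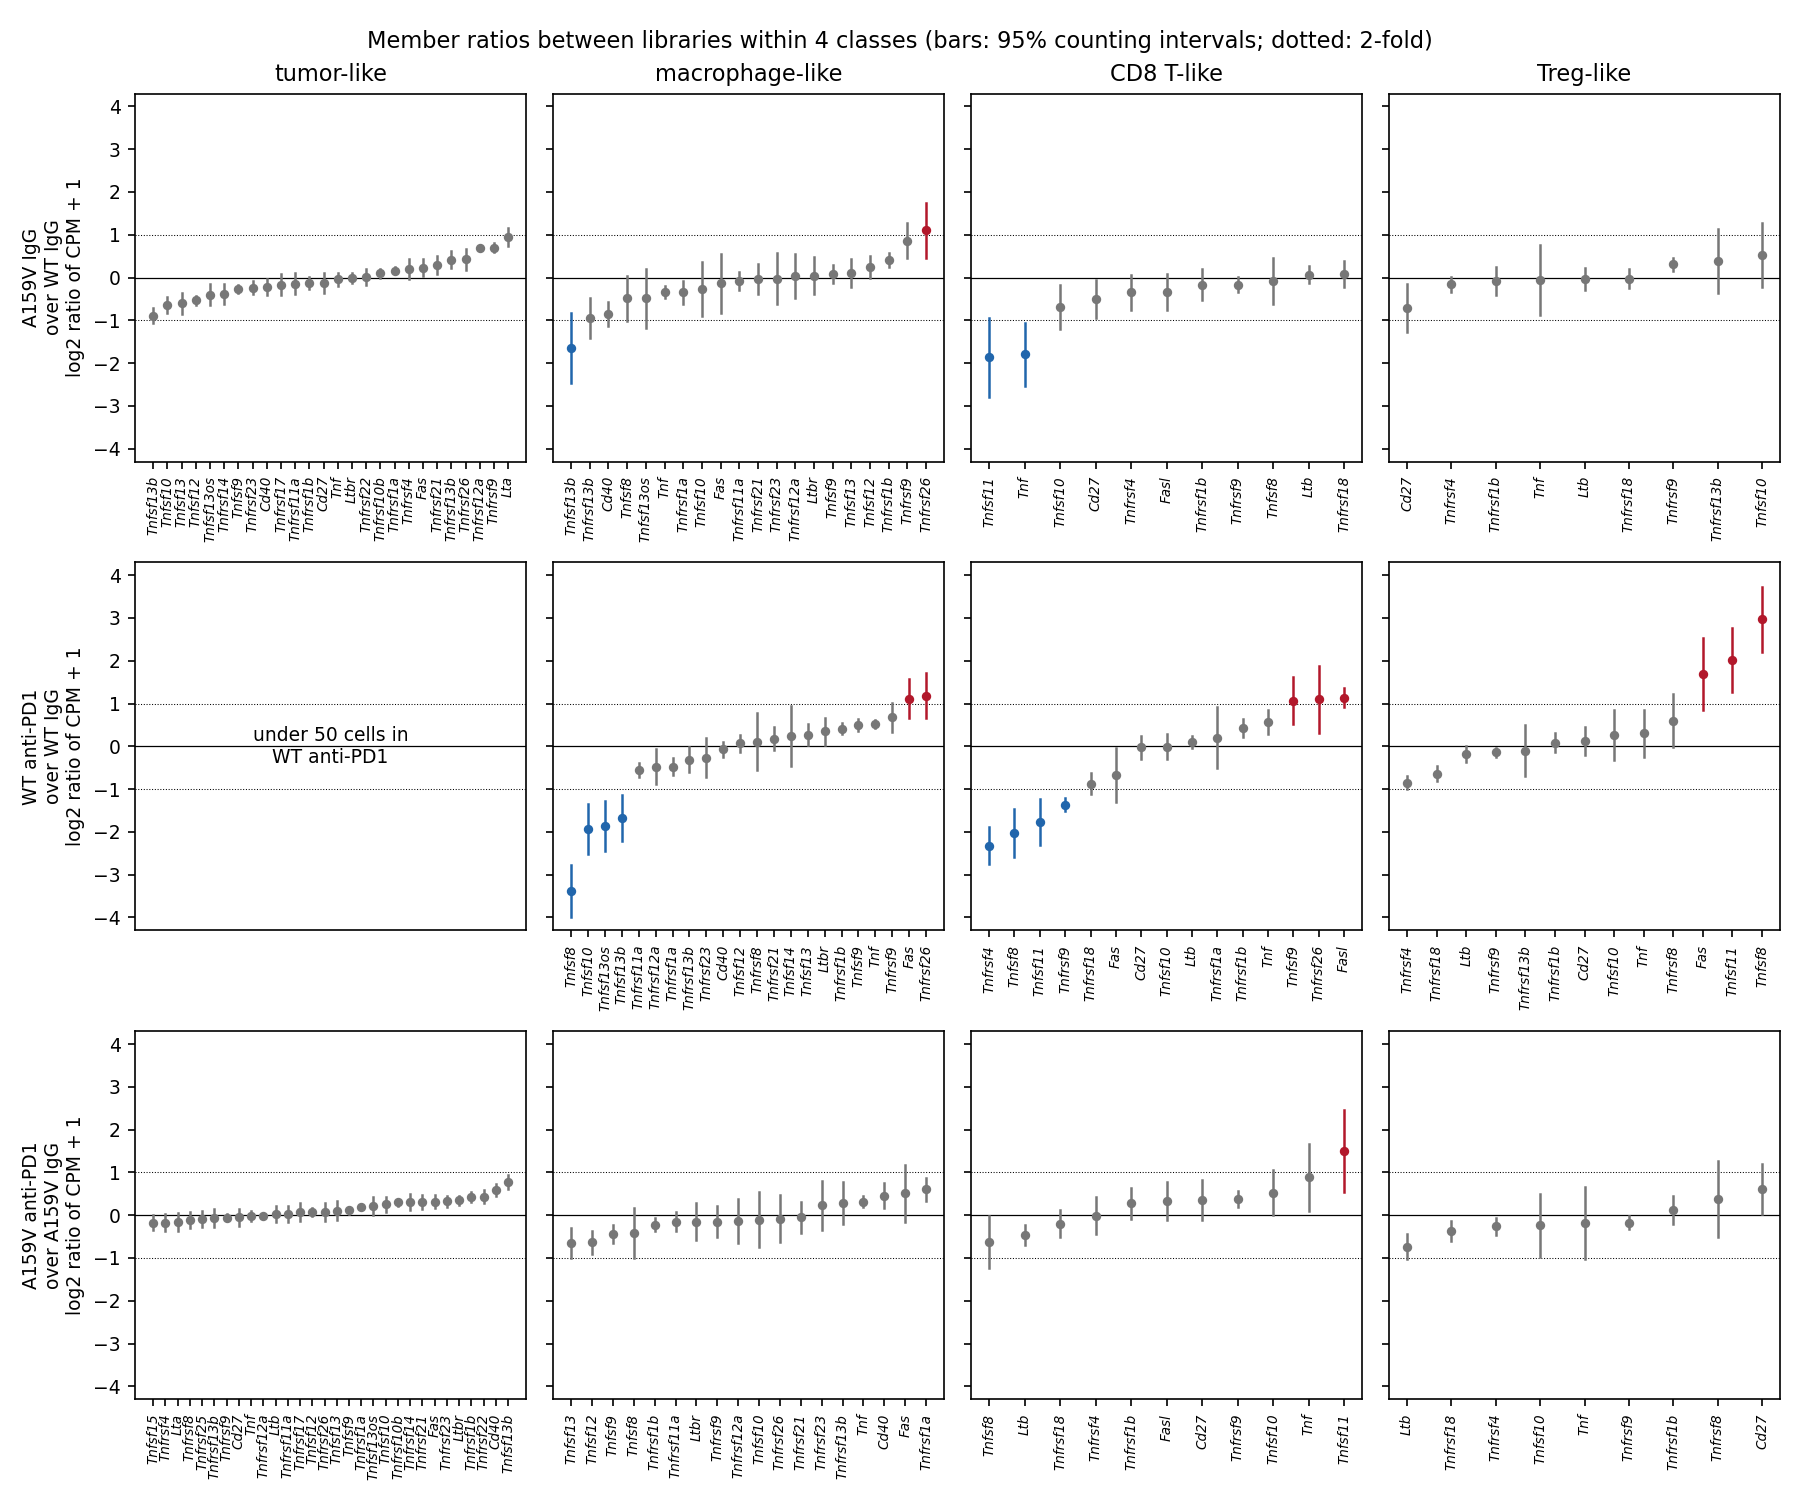
Log2 ratios of member levels (CPM + 1) within a class for the library comparisons, with 95% counting intervals and the 2-fold threshold as dotted lines. No member of the tumor-like class passed the threshold, while Tnfrsf4 in CD8 T-like cells lay at -2.32 in WT anti-PD1 over WT IgG.

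Downstream of the receptors, 34 adaptors, kinases and NF-κB genes were read in the same comparisons. In tumor-like cells all 34 could be compared between A159V IgG and WT IgG, and 2 were called (5.88%, against 5.59% of all genes), both lower: Traf1, an adaptor and NF-κB target, went from 93.1 CPM to 39.1 CPM, a log2 ratio of -1.23 (-1.29 to -1.17), and Nfkbie, an inhibitor of NF-κB, had -1.07 (-1.21 to -0.92). The median of the 34 was -0.21 there against -0.02 for all genes, and 0.16 against 0.05, with none called, between A159V anti-PD1 and A159V IgG. Macrophage-like cells of WT anti-PD1 had the same 2 genes lower than WT IgG, Traf1 at -1.36 (-1.55 to -1.16) and Nfkbie at -1.17 (-1.35 to -0.99), out of 34 (5.88%, against 13.3% of all genes), with a median of 0.012 against -0.07.

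In Treg-like, CD8 T-like and NK-like cells the calls between WT anti-PD1 and WT IgG were all higher, and 2 of the 9 held under median-of-ratios scaling, Map3k14 at 1.0 in Treg-like and Traf6 at 1.09 in NK-like cells. Their shares were near or under those of all genes: 14.3% against 15.7% in Treg-like, 6.45% against 15.1% in CD8 T-like and 10.0% against 20.5% in NK-like cells. In Treg-like cells 4 of 28 were called: Map3k14 (NIK), the kinase of the alternative NF-κB route, at 1.2 (0.43 to 1.98), Tab2 at 1.19 (0.92 to 1.45), Rela at 1.08 (0.33 to 1.82) and Tnfaip3 (A20), which restrains NF-κB, at 1.04 (0.83 to 1.25). CD8 T-like cells had 2 of 31, Tab2 at 1.19 (1.01 to 1.37) and Rela at 1.03 (0.55 to 1.5), and NK-like cells 3 of 30, Traf6 at 1.32 (0.54 to 2.1), Tab2 at 1.03 (0.84 to 1.22) and Otulin at 1.0 (0.7 to 1.31). Medians were 0.13, 0.11 and 0.42, against 0.17, 0.20 and 0.36 for all genes. Monocyte-like cells had Ikbkg, at 1.08 (0.36 to 1.8), and Tnfaip3, at 1.01 (0.91 to 1.1), called of 33, 6.06% against 13.6% of all genes and with a median of 0.33 against 0.08, and both came under the threshold with that scaling, to 0.86 and 0.79. In neutrophil-like cells 5 of 19 were higher and 1 lower (31.6%, against 28.8% of all genes), Nfkb2 furthest at 2.26 (0.35 to 4.16), with a median of 0.51 against 0.14. Fibroblast-like cells had 3 of 34 lower and 0 higher (8.82%, against 11.1%): Traf1 at -1.37 (-2.0 to -0.74), Nfkbib at -1.26 (-1.7 to -0.83) and Mlkl, the executor of necroptosis, at -1.03 (-1.28 to -0.77). Mature DC-like cells had 1 of 24 called, Rela at 1.06 and at 0.98 under median-of-ratios scaling (4.17%, against 12% of all genes), and other T-like cells 0 of 24 (12.9% of all genes). Between A159V IgG and WT IgG the calls outside tumor-like cells were all lower, with 1 in each of 3 classes: Nfkb2 in Treg-like cells, 1 of 23, at -1.06 (-2.01 to -0.12) on 10 and 57 UMIs, Nfkb1 in neutrophil-like cells, 1 of 7, at -1.54 (-2.08 to -0.99), and Tnfaip3 in other T-like cells, 1 of 20, at -1.11 (-1.46 to -0.75) (3.2%, 8.74% and 2.35% of all genes were called in these classes). Between A159V anti-PD1 and A159V IgG the single call over these classes was Map3k14 in other T-like cells, 1 of 21, higher at 1.14 (0.28 to 1.99) (2.12% of all genes).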

How the data were processed

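Whole tumors had been dissociated, and 3′ libraries were made with 10x Genomics chemistry. The authors deposited raw counts of UMIs, by gene and by cell barcode, for the barcodes that were called as cells. The labels name Cell Ranger 5.0.1, whereas the matrix headers name 7.2.0; the build is mm10, and reads in introns were counted according to the study's methods. The libraries shared 13 to 22 barcodes per pair.

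Cells with over 500 genes were kept, and predicted doublets (425, 374, 529 and 631 cells, at 0.8% per 1000 cells by a reimplemented Scrublet score) were removed, as were 510, 590, 553 and 432 cells at or under the gene minimum. Median depths were 4187, 4076, 3370.0 and 3533 UMIs. No background RNA was subtracted. Of the T cell genes listed to gauge stray RNA, 1 is not reported here and was left out of the sum. Each cell took the class of its highest marker score if at least 2 markers were detected and the next score was under 0.8 of it. After the first output was seen, cells with 3 or more tumor marker UMIs were barred from other classes, because mature DC-like cells of WT IgG had held tumor cells. Classes needed 50 cells in both libraries compared.

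Levels have exact Poisson intervals, log2 ratios (pseudocount 1 CPM) delta-method intervals and shares exact binomial (Clopper-Pearson) intervals, all at 95% and covering counting error only. The genotypes were compared between the IgG libraries, and anti-PD1 was set over IgG within each genotype. Leiden clusters (resolution 1.5) served as an alternative to the gate. Other alternatives changed the gene minimum, mitochondrial limit, doublet removal, scaling, pseudocount, UMI minimum and thinning. The ratio script was tested on simulated data. Members and lists were chosen with earlier results of these data known. Values were named for members with 20 UMIs in a class in every library or called in a comparison, and for at most 4 called signaling genes per comparison, with other members by counts; levels of sparse members named for their textbook partner, or for their tumor-like level, were added after their values were seen. Analyses used Python 3.11.15, numpy 2.4.6, scipy 1.17.1, pandas 2.3.3, scanpy 1.11.5, scikit-learn 1.9.0 and matplotlib 3.10.9.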

Additional observations from a re-analysis of the deposited data

Results flagged for a closer look

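The response of CD8 T-like cells to anti-PD1 ran in opposite directions in WT and A159V tumors for 2 members. For Tnfrsf9 the log2 ratio of anti-PD1 over IgG was -1.36 in WT and 0.38 in A159V tumors, a difference of 1.74. For Tnfsf11 it was -1.78 in WT and 1.5 in A159V tumors, a difference of 3.27. When Leiden clusters replaced the gate, Tnfsf11 came to 0.23 in WT and 1.07 in A159V tumors, the same direction in both. With predicted doublets kept, Tnfrsf9 came to -0.91 in WT tumors. With 1 library per group the difference was not tested for either gene. The Tnfsf11 values rest on 106, 33, 9 and 63 UMIs (IgG and anti-PD1 in WT, then IgG and anti-PD1 in A159V tumors).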

How the results depend on the processing

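No paired analysis was possible because each group has 1 library, and no library could be left out of a group. Of 21 called pairs of member and comparison in macrophage-like, CD8 T-like and Treg-like cells, 11 were called in the same direction under every alternative that could compare them. Tnfsf11 in CD8 T-like cells of WT anti-PD1 over WT IgG turned to 0.23 when Leiden clusters replaced the gate. The cause was not tested for the changes given here, apart from those that the UMI minimum sets by construction. Counts of called members moved as follows. With Leiden clusters they were 4 in CD8 T-like and 1 in Treg-like cells (WT anti-PD1), and 1 in each of the other Treg-like comparisons. Means over cells gave 1 in tumor-like and 1 in Treg-like cells between A159V IgG and WT IgG. With at least 200 UMIs, macrophage-like cells had 0 and 1 (A159V IgG and WT anti-PD1, each over WT IgG), CD8 T-like cells 0, 3 and 0 in the 3 comparisons, and Treg-like cells 0 for WT anti-PD1. With no minimum they were 1 of 37 in macrophage-like cells (A159V anti-PD1, 5.35% of all genes), 12 of 36, 16 of 37 and 9 of 36 in CD8 T-like cells (21.3%, 19.1% and 20.2% of all genes) and 12 of 34, 13 of 36 and 13 of 33 in Treg-like cells (35.5%, 37.8% and 36% of all genes). A pseudocount of 5 CPM gave 1 in macrophage-like cells between A159V IgG and WT IgG. Over 1000 genes, or doublets kept, gave 2 in CD8 T-like cells of A159V anti-PD1. Macrophage-like and monocyte-like cells as 1 class, chosen after seeing the data, gave 1 for A159V anti-PD1. With 100 UMIs required, 6 members shared a highest class, of 7. Without WT anti-PD1, also chosen afterward, it was 22 of 30. For Tnfrsf4 in Treg-like cells, thinning to 1000 UMIs gave 64.1% and 54.2% in WT IgG and A159V anti-PD1, and no thinning gave 83.1%, 74.8%, 73.9% and 73.8%. For Tnf in macrophage-like cells, 1000 UMIs gave 27.4%, 34.96% and 24.7% in WT IgG, WT anti-PD1 and A159V anti-PD1, and no thinning 53.5%, 61.8%, 35.6% and 43.8%. Of the 18 members that missed the UMI minimum, Tnfrsf12a and Tnfrsf10b had 53173 and 5549 UMIs over all cells, most of them outside the 9 ranked classes.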
